A study of Homo sapiens with 6 samples.

Results

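The genes described here are 9 immediate early genes of 3 families: EGR1, EGR2 and EGR3, NR4A1, NR4A2 and NR4A3, and IER2, IER3 and IER5. They were chosen by symbol, and all 9 were found among the 35974 genes of the deposited table. These genes and the gene lists below were chosen with earlier results of these data known, so their shares are descriptions. All libraries came from SU-DHL-8, an established cell line of diffuse large B-cell lymphoma (DLBCL) that the labels give as DNMT1 wild type and as lymph node in tissue. In 3 libraries the cells had been treated with GSK3685032, which inhibits the maintenance DNA methyltransferase DNMT1, and in the other 3 with the solvent DMSO. Inhibitor replicates 2 and 3 carry the compound names GSK3685033 and GSK3685034 in their own labels, whereas the titles number the inhibitor libraries as 1 series and the design text names GSK3685032 only, so replicate 1 was also tested alone. The sources used here give neither dose nor duration, and no label ties the libraries of a group to separate cultures, so the p-values describe the spread among these 6 libraries, which could be technical.

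Immediate early genes are transcribed within minutes of a stimulus, without new protein synthesis, when kinases such as ERK activate factors already bound at their promoters, among them SRF with its ETS partners and CREB. Their mRNAs and proteins are short-lived, and many encode transcription factors or feedback inhibitors. EGR proteins are zinc finger activators restrained by the corepressors NAB1 and NAB2, NR4A proteins are orphan nuclear receptors, and IER2 and IER5 are related nuclear proteins to which IER3 bears no such kinship. In B cells, EGR and NR4A genes are known for their rapid induction by the antigen receptor.

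The stretches before the annotated starts of EGR1, EGR2, IER2 and NR4A3 are printed because EGR1 and EGR2, which rose with the inhibitor, share a stretch there that IER2, which also rose, and NR4A3, the member that was lower, do not hold. They are RefSeq sequences of GRCh38.p14, 5′ to 3′ on the strand of the gene, ending at the base before the start. The window is 250 bases, except that NR4A3 is cut to its first 220 bases, where an annotated exon begins. Capitals mark CArG boxes (the SRF site), CRE cores (TGACG, the core of the CREB site), ETS sites (CCGGAA) and GC boxes (GGGCGG), searched on both strands. Other forms of these sites, such as ETS sites with other letters, were not searched and may lie unmarked. The regions are chr5:138465229-138465478 on the plus strand for EGR1, chr10:62816367-62816616 on the minus strand for EGR2, chr19:13150161-13150410 on the plus strand for IER2, and chr9:99821635-99821854 on the plus strand for NR4A3.
EGR1: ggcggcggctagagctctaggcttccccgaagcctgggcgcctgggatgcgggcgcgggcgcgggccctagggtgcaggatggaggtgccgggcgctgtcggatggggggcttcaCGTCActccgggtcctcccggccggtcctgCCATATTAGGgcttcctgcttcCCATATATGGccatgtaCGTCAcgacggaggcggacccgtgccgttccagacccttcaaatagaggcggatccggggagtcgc
EGR2: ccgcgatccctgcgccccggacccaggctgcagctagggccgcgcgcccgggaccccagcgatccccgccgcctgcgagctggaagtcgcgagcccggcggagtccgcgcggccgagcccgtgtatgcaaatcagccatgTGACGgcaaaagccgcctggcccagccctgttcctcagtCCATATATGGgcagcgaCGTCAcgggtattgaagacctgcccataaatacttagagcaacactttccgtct
IER2: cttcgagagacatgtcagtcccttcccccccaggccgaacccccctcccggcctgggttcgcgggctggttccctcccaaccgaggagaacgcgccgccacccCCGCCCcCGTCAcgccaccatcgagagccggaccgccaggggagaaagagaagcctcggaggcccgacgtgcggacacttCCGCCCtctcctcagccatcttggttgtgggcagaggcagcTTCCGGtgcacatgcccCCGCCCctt
NR4A3: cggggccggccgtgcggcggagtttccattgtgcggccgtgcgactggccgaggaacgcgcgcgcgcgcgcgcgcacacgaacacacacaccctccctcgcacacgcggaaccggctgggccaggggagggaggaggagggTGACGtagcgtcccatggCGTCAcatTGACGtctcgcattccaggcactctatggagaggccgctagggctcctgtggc

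EGR1 held 2 CArG boxes, beginning 105 and 83 bases before the start, and EGR2 held 1, beginning 71 bases before. The CArG box nearest the start had the same letters, CCATATATGG, in both genes, and in both a CRE core on the other strand (CGTCA) began 17 bases after the first base of that box. Among 35116 RefSeq promoter windows of this length, 9 held CCATATATGG and 2 of them, those of EGR1 and EGR2, held CGTCA at that distance. A CArG box of any kind was found in 1.16% of windows, a CRE core in 21.2%, an ETS site in 14.5% and a GC box in 42.6%. IER2 had 3 GC boxes, 1 CRE core and 1 ETS site, and NR4A3 had 4 CRE cores in the full window, 3 of them in the printed part. RefSeq gives EGR2 another 2 starts further upstream, without a CArG box in their windows, and the table does not say which start was used in these cells. NR4A1, which rose, and IER5, which was not called, held neither a CArG box nor a CRE core in their windows (2 for NR4A1, 1 for IER5), and each gene had 1 ETS site. No promoter entry was used for EGR3, NR4A2 and IER3. A match of letters is a description and not a site, and these elements were singled out after the sequences were seen.

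The libraries held 53846028 to 56795603 estimated counts with the inhibitor and 57451935 to 75304441 with DMSO. Counts of exactly 4 were commoner (1320 genes in the mean library) than counts of 3 (726 genes) or 5 (474 genes), and a read pair was taken as 4 counts. DNMT1 itself averaged 12.7 ± 0.774 FPKM (fragments per kilobase of gene and per unit of library size, a level per length) with the inhibitor and 33.0 ± 0.690 FPKM with DMSO (SD, n = 3 each). The summed level of 8 B-cell and germinal centre markers (3 higher and 5 lower) was 800.2 to 866 FPKM with the inhibitor and 874 to 891 FPKM with DMSO, so the labelled lineage was present. Plasma cell markers (4 of 4 tested, 2 higher and 2 lower) summed to 52.0 to 53.6 FPKM with the inhibitor and 87.3 to 89.5 FPKM with DMSO. Most of that sum was XBP1, at 50.2 FPKM with the inhibitor and 84.6 FPKM with DMSO, while SDC1 stood at 0.675 FPKM with the inhibitor and 0 with DMSO. Summed T cell markers (2 of 5 in the table, 1 tested and higher) were 5.02 to 6.94 FPKM with the inhibitor and 2.02 to 2.86 FPKM with DMSO. NK markers (3 of 3, 2 tested, both higher) summed to 0.921 to 1.66 FPKM with the inhibitor and 0.273 to 0.383 FPKM with DMSO, and epithelial markers (4 of 4, 3 tested, all higher) to 2.74 to 4.15 FPKM with the inhibitor and 0 to 0.0144 FPKM with DMSO. Summed myeloid, fibroblast and endothelial markers stayed at or below 1.08 FPKM in every library and were also higher with the inhibitor. No listed marker in the table was at 0 in all libraries, and the part of these cell types in the results was not tested. In bulk RNA, fewer cells that express a gene and less of its RNA per cell cannot be told apart.

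Of the 9 genes, 7 were higher with the inhibitor (EGR1, EGR2, EGR3, NR4A1, NR4A2, IER2 and IER3), where 38.1% of all 20783 tested genes were higher. NR4A3 was lower, where 27.3% of all tested genes were lower, and IER5 was not called. All 9 passed the filter on low counts. Calls are from edgeR's quasi-likelihood test at an adjusted p of 0.05 over all tested genes, two-sided. At least 2-fold increases were called for 4 of the 9 (EGR1, EGR3, NR4A1 and IER3), where 25.3% of all tested genes rose that far. None fell at least 2-fold, where 8.1% of all tested genes did. The FPKM values of the groups did not overlap for 8 of the 9, all but IER5, where 71.7% of tested genes did not overlap (41.7% with the inhibitor libraries higher and 30.0% with them lower). The median log2 change of the 9 was 0.997, that of EGR2, against 0.14 over all tested genes. Among the 12777 tested genes with a mean of at least 1 FPKM in a group, 34.1% were higher and 39.7% lower. Among the 18084 tested genes with more than 12 counts over each group, which include all 9, 29.5% were higher and 30.9% lower, with a median log2 change of 0.0. This restriction was chosen after the data were seen.

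**Figure D1:**
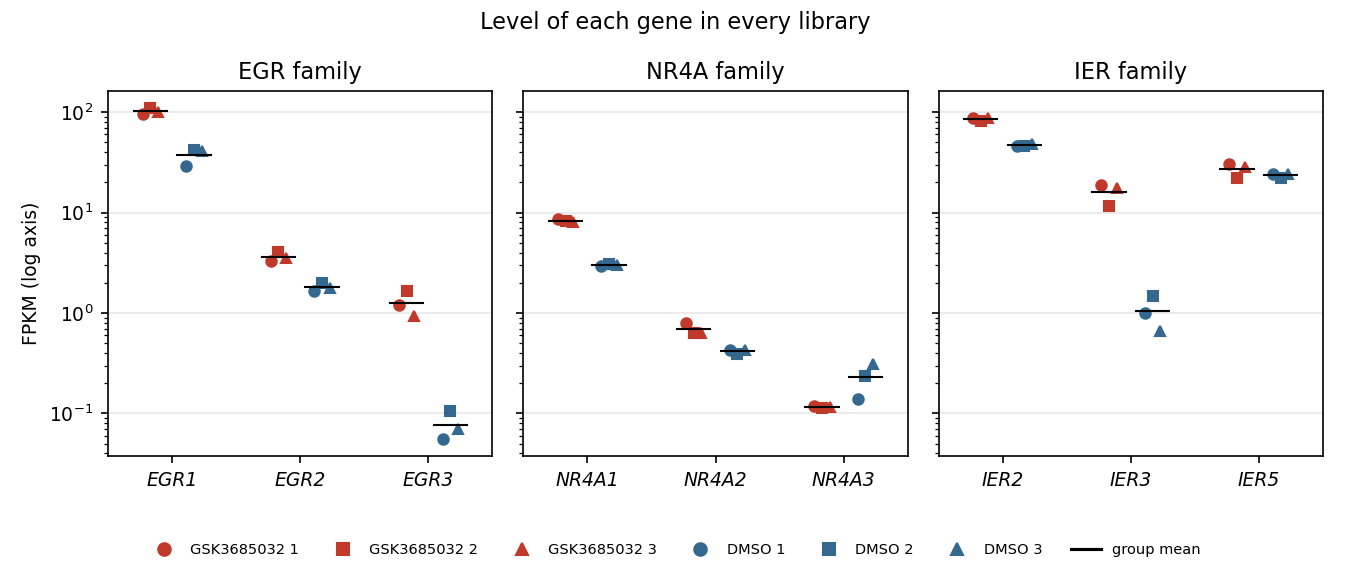
FPKM (log axis) of the 9 genes in each of 3 inhibitor libraries (red) and 3 DMSO libraries (blue), with replicates 1 to 3 as circles, squares and triangles and group means as black lines. The red points lie above the blue ones for 7 genes, below them for NR4A3, and overlap them for IER5.

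EGR1 (ENSG00000120738, GRCh38 chromosome 5, 138465479 to 138469303) encodes the best known EGR activator, induced by growth factors and by the B-cell receptor. Its level was 96.1, 110.3 and 101.0 FPKM in inhibitor replicates 1 to 3, against 29.2, 41.9 and 41.1 FPKM in DMSO replicates 1 to 3. The lowest inhibitor library stood above every DMSO library by more than the range within either group, and DMSO replicate 1 was the lowest of its group. The log2 change was 1.45 (SE 0.122, edgeR adjusted p = 5.0e-06), that is 2.72-fold higher. With a mean of 103 FPKM with the inhibitor and 37.4 FPKM with DMSO, EGR1 was the most abundant member with the inhibitor and ranked after IER2 with DMSO.

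EGR2 (ENSG00000122877, chromosome 10, 62811996 to 62818659), which limits lymphocyte activation and shapes myelination, was expressed at a lower level. It measured 3.27, 4.09 and 3.50 FPKM with the inhibitor, against 1.66, 1.98 and 1.76 FPKM with DMSO. The groups were apart, and the log2 change was 0.997 ± 0.133 (SE; edgeR adjusted p = 1.1e-04). EGR3 (ENSG00000179388, chromosome 8, 22687659 to 22693480), which acts with EGR2 in lymphocytes, was near the limit of detection with DMSO. It measured 1.21, 1.67 and 0.934 FPKM with the inhibitor, against 0.0552, 0.105 and 0.0708 FPKM with DMSO. The DMSO values rest on 18, 43 and 26 counts, so the fold is imprecise: the log2 change was 3.99 (SE 0.318, edgeR adjusted p = 3.36e-06). Every inhibitor library stood far above every DMSO library, although the inhibitor libraries differed among themselves. EGR4, the remaining family member, was not tested, with 39, 60 and 6 counts in the inhibitor libraries and 0 in every DMSO library. Against a floor of 12 counts over the DMSO group, that is 3 read pairs, the EGR4 counts of the inhibitor group were 10.2-fold higher. The floor allows for counting error in the DMSO zeros only. It takes the inhibitor counts as they stand, although inhibitor replicate 3 held 6.

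Within the EGR family the mix of members stayed dominated by EGR1. EGR1 made up 95.5% ± 0.389 of the summed FPKM of EGR1, EGR2 and EGR3 with the inhibitor and 95.2% ± 0.636 with DMSO (SD, n = 3 each). The share of EGR3 was 1.2%, 1.44% and 0.885% in the inhibitor libraries, against 0.178%, 0.239% and 0.165% in the DMSO libraries. The share of EGR2 was 3.25% to 3.52% with the inhibitor and 4.10% to 5.35% with DMSO. Neither share overlapped between groups, with EGR3 taking a larger and EGR2 a smaller part of the sum in the inhibitor libraries. These shares were not tested.

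NR4A1 (ENSG00000123358, chromosome 12, 52022832 to 52059506), also called NUR77, is an orphan nuclear receptor that reports antigen receptor signalling in lymphocytes. It measured 8.58, 8.32 and 8.06 FPKM with the inhibitor, against 2.91, 3.05 and 3.01 FPKM with DMSO. The libraries within each group were close together, with a coefficient of variation of 3.13% with the inhibitor and 2.43% with DMSO, and the groups were far apart. The log2 change was 1.47 (SE 0.057, edgeR adjusted p = 4.71e-08), or 2.77-fold, with the smallest standard error of the NR4A genes. TAMALIN, the neighbouring gene on the same strand 6943 bases upstream, reached 3.13 FPKM with the inhibitor against 0.0699 FPKM with DMSO, while ATG101 on the other side was lower (17.4 FPKM with the inhibitor, against 31.5 FPKM with DMSO). Both neighbours are named for their position, not by the rule for named genes. NR4A1 has RefSeq starts at 2 places whose 250 bases upstream hold 4 and 18 CpG, and the gene-level values cannot say which was used.

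NR4A2 (ENSG00000153234, chromosome 2, 156324437 to 156342348), the receptor NURR1 known from dopamine neurons, was low in both groups. It measured 0.794, 0.636 and 0.632 FPKM with the inhibitor, against 0.424, 0.387 and 0.432 FPKM with DMSO. The groups did not overlap, and the log2 change was 0.72 ± 0.212 (SE; edgeR adjusted p = 0.0134). The call ended without inhibitor replicate 1, the highest library (log2 change 0.59, edgeR adjusted p = 0.0571).

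NR4A3 (ENSG00000119508, chromosome 9, 99821855 to 99866891), the receptor NOR1, went the other way. It measured 0.119, 0.114 and 0.116 FPKM with the inhibitor, against 0.138, 0.235 and 0.314 FPKM with DMSO. The inhibitor libraries were nearly equal, while the DMSO libraries spread widely and DMSO replicate 1 lay close to the inhibitor group. The log2 change was -0.98 (SE 0.339, edgeR adjusted p = 0.0287), from 47, 45 and 43 counts with the inhibitor and 54, 120 and 142 with DMSO. This call is fragile: it ended without any of inhibitor replicates 1, 2 or 3 or DMSO replicates 2 or 3 (edgeR adjusted p = 0.0640 to 0.120), under upper-quartile scaling (edgeR adjusted p = 0.0608), without a filter on low counts (edgeR adjusted p = 0.0522), with inhibitor replicate 1 alone (edgeR adjusted p = 0.221) and with limma on log2 FPKM (adjusted p = 0.0621 to 0.1). STX17-DT, a noncoding gene on the opposite strand, overlaps NR4A3 and averaged 0.147 FPKM with the inhibitor and 0.0270 FPKM with DMSO. The labels describe a library that marks strand, but no source used here says whether the counting used it, so reads of these overlapping genes cannot be told apart with certainty.

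Together the NR4A genes summed to 9.12 ± 0.346 FPKM with the inhibitor and 3.63 ± 0.146 FPKM with DMSO (SD, n = 3 each). NR4A1 provided 90.4% to 91.7% of that sum with the inhibitor and 80.1% to 83.8% with DMSO. NR4A3 provided 1.26% to 1.32% with the inhibitor and 3.97% to 8.36% with DMSO, and neither share overlapped between groups.

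IER2 (ENSG00000160888, chromosome 19, 13150411 to 13154911), a nuclear protein among the fastest induced by serum, was abundant throughout. It measured 87.5, 80.8 and 87.8 FPKM with the inhibitor, against 45.6, 45.7 and 48.6 FPKM with DMSO. The groups were clearly apart and tight within, and the log2 change was 0.87 ± 0.051 (SE; edgeR adjusted p = 5.12e-07). A gene without a name on the other strand, ENSG00000267598, overlaps IER2, at 2.06 FPKM with the inhibitor and 0 with DMSO, a small level beside that of IER2.

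IER3 (ENSG00000137331, chromosome 6, 30743199 to 30744548), also known as IEX-1, a stress-induced regulator of cell survival and of ERK signalling, showed the largest change of the IER genes. It measured 18.7, 11.6 and 17.5 FPKM with the inhibitor, against 1.0, 1.48 and 0.662 FPKM with DMSO. Inhibitor replicate 2 was the lowest of its group but still far above every DMSO library. The log2 change was 3.89 (SE 0.295, edgeR adjusted p = 2.42e-06), that is 14.8-fold higher. FLOT1, the neighbour 467 bases away on the same strand, fell to 14.9 FPKM with the inhibitor, against 21.6 FPKM with DMSO. The antisense gene IER3-AS1, which overlaps IER3, averaged 0.190 FPKM with the inhibitor and 0.123 FPKM with DMSO and was not tested.

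IER5 (ENSG00000162783, chromosome 1, 181088700 to 181092900), which activates the heat shock factor HSF1, was the only gene of the 9 that was not called. It measured 30.1, 22.1 and 28.4 FPKM with the inhibitor, against 24.3, 22.2 and 24.2 FPKM with DMSO. Inhibitor replicate 2 lay at the level of the lowest DMSO library and the other two inhibitor libraries above them. Its log2 change was 0.18 (SE 0.104, edgeR adjusted p = 0.149). It was called higher without inhibitor replicate 2 (log2 change 0.31, edgeR adjusted p = 0.00247), and also under upper-quartile scaling (edgeR adjusted p = 0.0120) and with inhibitor replicate 1 alone (edgeR adjusted p = 0.00451). Its paralog IER5L, called higher, averaged 1.24 ± 0.213 FPKM with the inhibitor and 0.156 ± 0.00948 FPKM with DMSO (SD, n = 3 each), with an edgeR adjusted p of 5.81e-06 and a log2 change of 2.96 (SE 0.256).

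Among the IER genes, IER3 made up 10.1% to 13.7% of the summed FPKM with the inhibitor and 0.9% to 2.14% with DMSO. The share of IER5 was 19.3% to 22.1% with the inhibitor and 32.0% to 34.3% with DMSO, again without overlap. The share of IER2 overlapped, at 64.2% to 70.5% with the inhibitor and 64.3% to 66.1% with DMSO. Within the inhibitor group, replicate 2 held the highest value of EGR1, EGR2 and EGR3 and the lowest value of IER2, IER3 and IER5. With 3 libraries a group this is a description of that library.

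The level order of the 9 genes with the inhibitor was EGR1, IER2, IER5, IER3, NR4A1, EGR2, EGR3, NR4A2 and NR4A3. With DMSO it was IER2, EGR1, IER5, NR4A1, EGR2, IER3, NR4A2, NR4A3 and EGR3. No neighbours in either order overlapped in their range over 3 libraries. EGR1 was higher than 99.3% of all deposited genes with the inhibitor and 97.2% with DMSO, whereas EGR3 was higher than 68.1% with the inhibitor and 46.7% with DMSO. The 2 largest increases, of EGR3 and IER3, were exceeded by 13.0% and 13.2% of all tested genes, and that of EGR1 by 22.2%. These ranks run over all tested genes, including 2699 with at most 12 counts over a group, whose folds are imprecise. At least 2-fold rises were called for 5266 of all tested genes but for 2688 without those. Ranks of the 9 among the remaining genes were not computed. Under upper-quartile scaling the median log2 change of all tested genes was 0.31 in place of 0.14, with 9312 genes higher (44.8%) and 4344 lower (20.9%) in place of 7918 and 5672. All 9 genes kept their direction there, 8 were higher and none was lower.

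**Figure D2:**
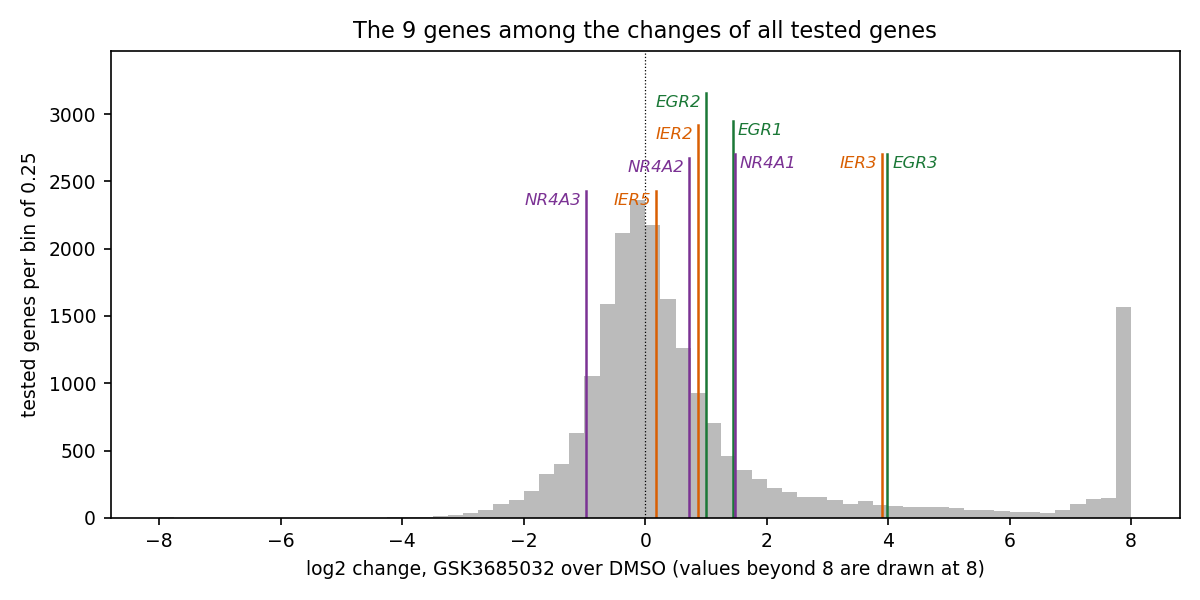
Histogram of the log2 change (inhibitor over DMSO) of all 20783 tested genes in bins of 0.25, with the 9 genes as coloured lines (EGR green, NR4A purple, IER orange) and changes beyond 8 drawn at 8. NR4A3 lies left of 0 at -0.98, IER5 next to 0, and IER3 and EGR3 near 4 on the right.

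The wider immediate early response was described with a list of 47 other immediate early genes, also chosen with earlier results of these data known. Of 45 tested, 30 were higher (66.7%, against 38.1% of all tested genes) and 10 lower (22.2%, against 27.3%), with a median log2 change of 0.64 against 0.14 over all tested genes. Of the 45, 16 rose and 3 fell at least 2-fold, where 25.3% and 8.1% of all tested genes did. These figures include 5 genes with at most 12 counts over the DMSO libraries, 4 of them at 0, which passed the filter only through the inhibitor libraries. Among the other 40, 25 were higher (62.5%) and 10 lower, the median log2 change was 0.46, and 11 rose and 3 fell at least 2-fold. The 40 still hold FOSL1 (19, 0 and 14 DMSO counts), which also passed the filter only through the inhibitor libraries. All tested genes with more than 12 counts over each group were 29.5% higher and 30.9% lower. Of these 18084 genes, 2688 rose and 1605 fell at least 2-fold.

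The FOS genes, partners of JUN proteins, were among the higher ones. FOS averaged 77.8 ± 8.36 FPKM with the inhibitor and 10.9 ± 2.12 FPKM with DMSO (SD, n = 3 each; log2 change 2.83, SE 0.134, edgeR adjusted p = 1.39e-07). FOSB averaged 5.23 ± 0.482 FPKM with the inhibitor and 0.774 ± 0.166 FPKM with DMSO, and FOSL1 1.27 ± 0.266 FPKM with the inhibitor and 0.0860 ± 0.0794 FPKM with DMSO. DUSP1 and DUSP5, phosphatases that switch off MAP kinases, were called higher too, unlike DUSP6, described with the feedback inhibitors. DUSP1 averaged 36.9 ± 0.455 FPKM with the inhibitor and 13.9 ± 0.316 FPKM with DMSO. DUSP5, specific for ERK, averaged 5.06 ± 0.522 FPKM with the inhibitor and 0.0996 ± 0.0161 FPKM with DMSO, from 55 DMSO counts. The serum-induced kinase SGK1 reached 3.65 ± 0.216 FPKM with the inhibitor, against 0.276 ± 0.0516 FPKM with DMSO, and ZFP36L1, which marks AU-rich mRNAs for decay, 29.4 ± 0.787 FPKM with the inhibitor, against 13.1 ± 0.482 FPKM with DMSO. FOSL1 had the largest edgeR adjusted p among them, 0.00115.

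ARC, an activity-regulated gene of neurons, CCN2, a secreted matrix-associated protein, and the kinase PLK2 had 0 counts with DMSO, as did the small GTPase RHOB. ARC reached 7.56 ± 0.556 FPKM with the inhibitor, at least 401-fold higher than the floor of 12 counts over the DMSO group. CCN2 reached 4.84 ± 0.979 FPKM, at least 201-fold, and PLK2 1.26 ± 0.234 FPKM, at least 105-fold. RHOB stood at 32.0 ± 3.06 FPKM, at least 1341-fold. The chemokine CCL3 averaged 0.984 ± 0.388 FPKM with the inhibitor and had 8 counts over the DMSO libraries. None of the 9 genes at issue was silent with DMSO in this way, since each had at least 87 counts over that group.

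Not all immediate early genes followed. PIM1, a survival kinase induced by cytokines, averaged 6.47 ± 1.05 FPKM with the inhibitor and 36.8 ± 2.67 FPKM with DMSO (SD, n = 3 each; log2 change -2.51, SE 0.116, edgeR adjusted p = 1.16e-07). KLF10, a repressor induced by TGF-beta, averaged 8.13 ± 0.487 FPKM with the inhibitor and 43.4 ± 1.34 FPKM with DMSO (log2 change -2.42, SE 0.053, edgeR adjusted p = 3.88e-09). Both were lower in all 3 inhibitor libraries than in any DMSO library. The other lower genes of the list were MYC, CD83, BHLHE40, ATF3, CSRNP1, CD69, TNFAIP3 and SRF, with smaller changes. MYC averaged 111 ± 5.47 FPKM with the inhibitor and 188 ± 3.7 FPKM with DMSO. These genes were named after their values were seen, to complete the lower genes.

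**Figure D3:**
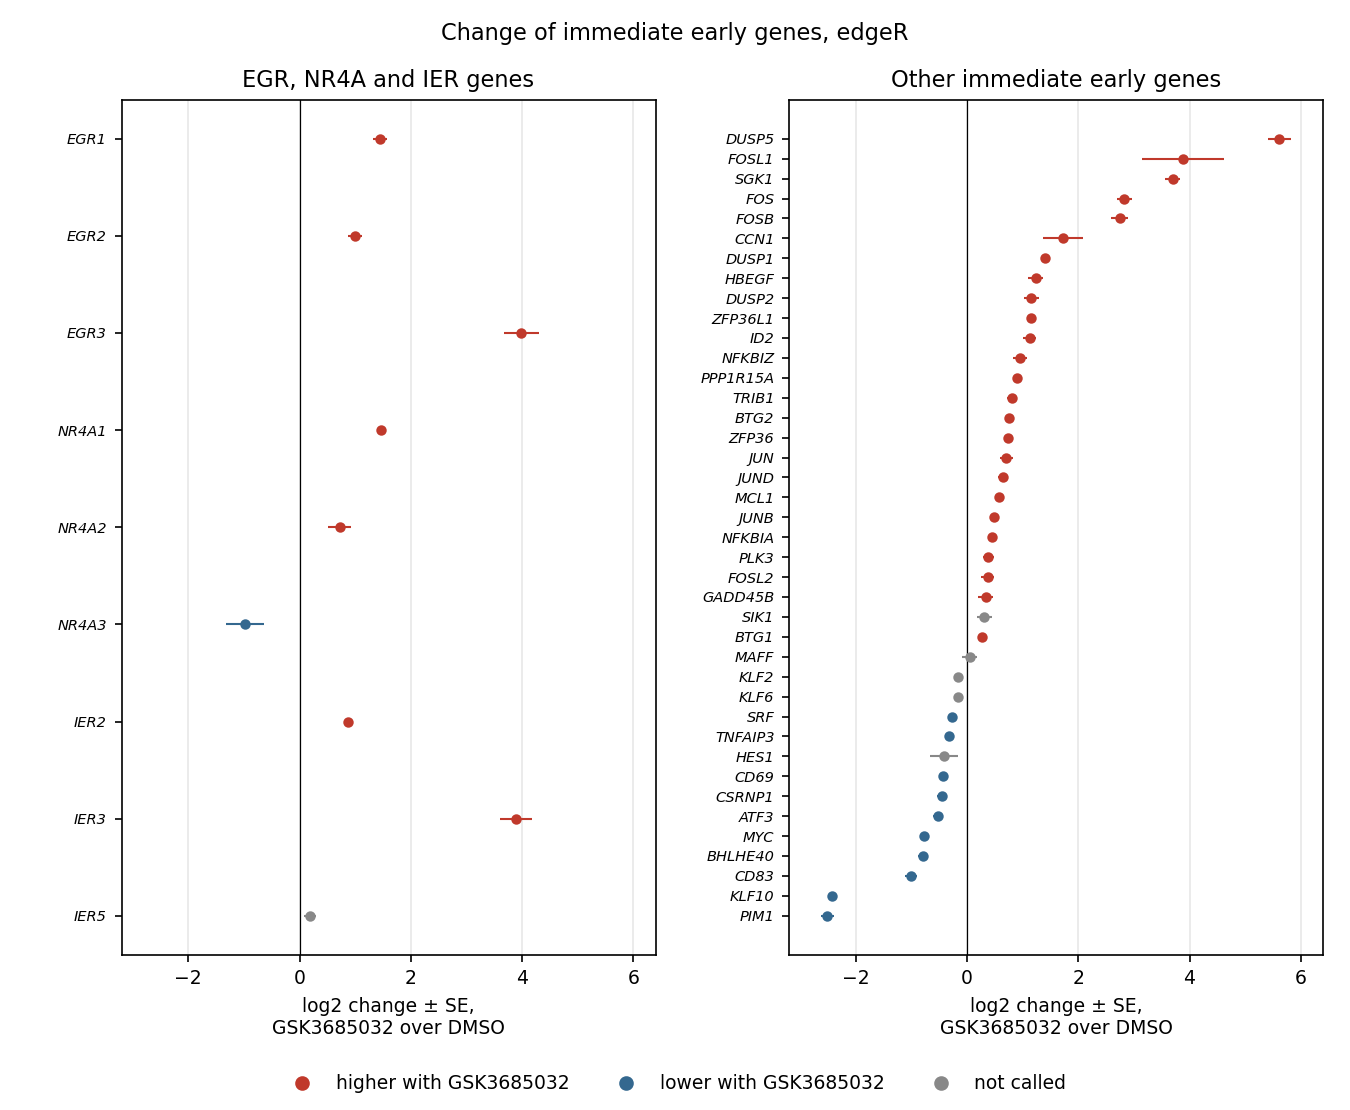
Log2 change ± SE (edgeR, inhibitor over DMSO) of the 9 genes (left) and of the tested other immediate early genes with more than 12 counts over the DMSO libraries (right); red, higher, blue, lower, grey, not called. Most points on both sides lie right of 0, with NR4A3 on the left side and PIM1 and KLF10 on the right side as the most negative.

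The signalling chain that induces these genes was mostly lower at the RNA level. Of 24 genes from the B-cell receptor through RAS to ERK and its nuclear kinases, 3 were higher and 16 lower (66.7%), with a median log2 change of -0.44. This and the further lists stand beside 38.1% higher, 27.3% lower and a median of 0.14 over all tested genes. Among tested genes with more than 12 counts over each group, 29.5% were higher and 30.9% lower, with a median of 0.0. Every tested gene of the cascade, inducing factor, partner and decay lists lies in that set. The same set is the measure for the restricted counts of feedback inhibitors and targets below. RASGRP3 and RASGRP1, which activate RAS downstream of the receptor, averaged 0.188 ± 0.0243 and 0.358 ± 0.0304 FPKM with the inhibitor, against 1.5 ± 0.142 and 0.867 ± 0.0354 FPKM with DMSO. The receptor-proximal kinase SYK averaged 29.1 ± 1.21 FPKM with the inhibitor and 57.4 ± 2.09 FPKM with DMSO. The ERK kinases split, with MAP2K2 at 13.1 ± 0.844 FPKM with the inhibitor and 6.99 ± 0.446 FPKM with DMSO, and MAP2K1 at 8.62 ± 0.341 FPKM with the inhibitor and 15.2 ± 0.761 FPKM with DMSO. RNA levels do not measure kinase activity.

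Of 21 transcription factors that induce immediate early genes, 6 were higher and 11 lower (median log2 change -0.14). Fewer were lower under upper-quartile scaling and at 1 FPKM or more, as given at the end. CRTC3, a CREB coactivator, stood at 0.406 ± 0.0438 FPKM with the inhibitor and 0.0380 ± 0.00582 FPKM with DMSO, and MEF2C at 2.28 ± 0.111 FPKM with the inhibitor and 7.71 ± 0.166 FPKM with DMSO. NFATC1, a calcium-responsive factor, averaged 4.88 ± 0.0940 FPKM with the inhibitor and 2.36 ± 0.117 FPKM with DMSO, while NFATC2 averaged 6.98 ± 0.375 FPKM with the inhibitor and 15.4 ± 0.275 FPKM with DMSO. SRF, itself also on the list of other immediate early genes and named after its values were seen because its site stands in the EGR1 and EGR2 stretches, averaged 33.8 ± 1.41 FPKM with the inhibitor and 40.6 ± 1.25 FPKM with DMSO (log2 change -0.27, SE 0.051, edgeR adjusted p = 0.00106), a call that ended under upper-quartile scaling (edgeR adjusted p = 0.102).

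Feedback inhibitors of ERK signalling, many of which are themselves induced by ERK, split into 8 higher, 4 lower and 1 not called among 13 (median log2 change 0.59). The 8 include SPRY1 and SPRY2, with 4 and 10 counts over the DMSO libraries, which passed the filter only through the inhibitor libraries. Among the other 11, 6 were higher (54.5%) and 4 lower (36.4%), with a median log2 change of 0.34. SPRY2, a Sprouty inhibitor of receptor signalling, averaged 7.00 ± 1.18 FPKM with the inhibitor and had 10 counts over the DMSO libraries. SPRY4 averaged 4.89 ± 0.519 FPKM with the inhibitor and 1.66 ± 0.0994 FPKM with DMSO, and the RAS inactivator RASA3 15.0 ± 0.969 FPKM with the inhibitor and 6.96 ± 0.389 FPKM with DMSO. DUSP6, the cytoplasmic ERK phosphatase, went down, with 11.9, 11.3 and 10.8 FPKM in the inhibitor libraries, against 18.8, 19.8 and 21.4 FPKM in the DMSO libraries.

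Partners and corepressors of the 9 proteins counted 11 lower and 2 higher genes among 15 tested (median log2 change -0.51). The 2 higher genes were NAB2 and RXRA. RXRA had 14 counts over the DMSO libraries and passed the filter only through the inhibitor libraries. The EGR corepressors moved apart. NAB2, itself an EGR target, averaged 14.3 ± 2.88 FPKM with the inhibitor and 5.02 ± 0.227 FPKM with DMSO (SD, n = 3 each; log2 change 1.5, SE 0.126, edgeR adjusted p = 4.88e-06). NAB1 averaged 4.50 ± 0.539 FPKM with the inhibitor and 9.44 ± 0.0897 FPKM with DMSO (log2 change -1.07, SE 0.079, edgeR adjusted p = 1.93e-06). HSF1, the partner of IER5, averaged 14.5 ± 0.920 FPKM with the inhibitor and 25.8 ± 0.763 FPKM with DMSO.

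Reported targets of the 9 genes, a list that also holds NAB2, counted 8 higher and 5 lower genes among 18 tested (44.4% and 27.8%, median log2 change 0.10), shares close to those of all tested genes. Without the 1 gene of this list with at most 12 DMSO counts, 7 of 17 were higher and 5 lower, with a median log2 change of -0.02. Of 5 heat shock genes on that list, 4 were called higher and HSPH1 was not, where 38.1% of all tested genes were higher. IER5 is reported to raise these 5 through HSF1, a link that was not tested here. HSPH1, the most abundant of them, averaged 57.6 ± 3.87 FPKM with the inhibitor and 59.7 ± 2.03 FPKM with DMSO (log2 change -0.06, edgeR adjusted p = 0.322), a value whose sign turned under upper-quartile scaling. DNAJB1 averaged 13.9 ± 0.650 FPKM with the inhibitor and 11.8 ± 0.0662 FPKM with DMSO. Both were named after their values were seen. HSPA1A averaged 21.5 ± 0.838 FPKM with the inhibitor and 7.5 ± 0.572 FPKM with DMSO, its near-identical copy HSPA1B 31.0 ± 1.05 FPKM with the inhibitor and 12.5 ± 1.05 FPKM with DMSO, so that reads may be shared between them. HSPB1 averaged 21.6 ± 0.855 FPKM with the inhibitor and had 15 counts over the DMSO libraries (0, 4 and 11). HSPB1 stayed among the 17 although it passed the filter only through the inhibitor libraries. CDKN1A, a cell cycle inhibitor, averaged 27.1 ± 1.28 FPKM with the inhibitor and 12.2 ± 0.762 FPKM with DMSO. BCL6, the germinal centre repressor, averaged 2.59 ± 0.354 FPKM with the inhibitor and 6.75 ± 0.531 FPKM with DMSO. Of 17 genes that act on the decay of AU-rich mRNAs, ZFP36L1 among them, 3 were higher and 11 lower (median log2 change -0.32). ZFP36 averaged 15.8 ± 0.903 FPKM with the inhibitor and 9.45 ± 0.211 FPKM with DMSO, and ELAVL1, which stabilises such mRNAs, 21.3 ± 0.202 FPKM with the inhibitor and 38.4 ± 0.923 FPKM with DMSO.

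**Figure D4:**
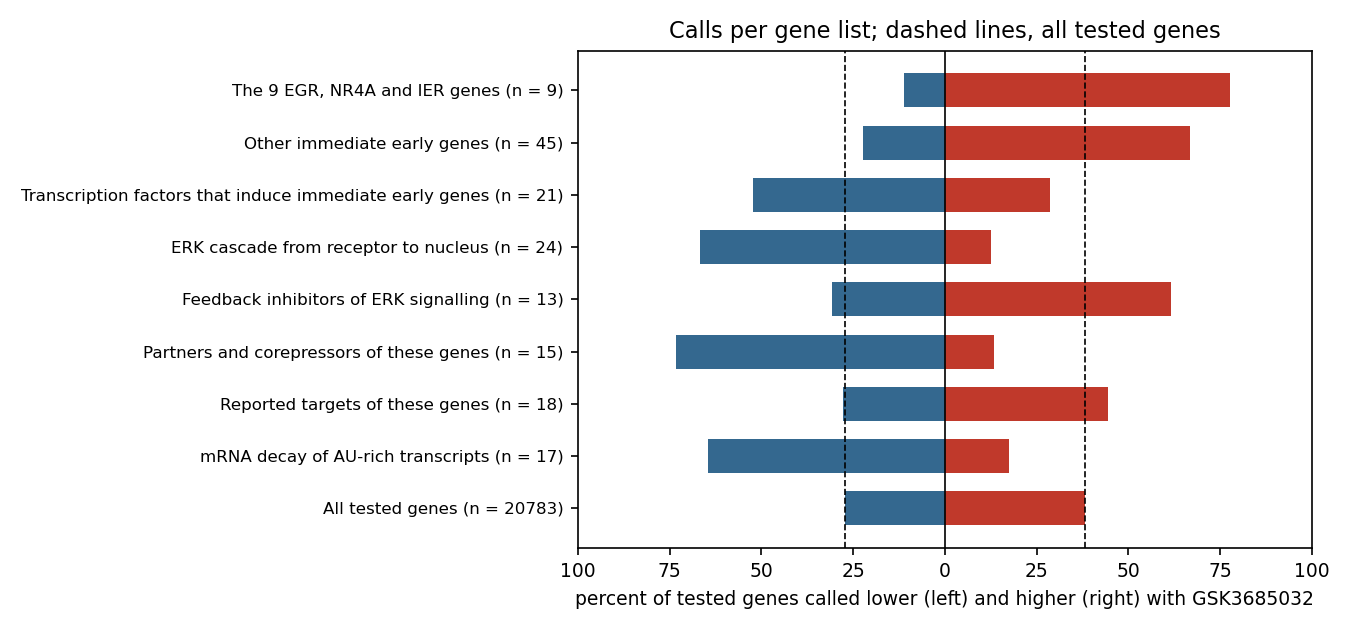
Percent of tested genes called lower (blue, left) and higher (red, right) with the inhibitor for the 9 genes, 7 gene lists and all tested genes, with dashed lines at 27.3% lower and 38.1% higher over all tested genes. Red bars pass the right dashed line for the 9 genes, the other immediate early genes, the feedback inhibitors and the targets, and blue bars reach well past the left one for the inducing factors and the ERK cascade, partner and decay lists.

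CpG content before the start, of interest because the inhibitor acts on CpG methylation, varied among the members with a promoter entry. Over all 35116 windows the median ratio of observed to expected CpG was 0.558. EGR1 had 25 CpG in 250 bases and a ratio of 0.863, higher than 77.3% of windows, and IER2 had 22 and 0.759. EGR2, also higher, had 27 CpG and a ratio of 1.01 at its printed start, higher than 92.0% of windows, and ratios of 0.927 and 0.439 at its other starts. NR4A3, the lower gene, had 33 CpG and a ratio of 1.15, and IER5, not called, had 33 and 1.07, the 2 highest ratios of these genes. The upstream start of NR4A1 had 4 CpG and a ratio of 0.226, and its other start had 18 CpG and a ratio of 0.61. Methylation was not measured in these libraries.

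**Figure D5:**
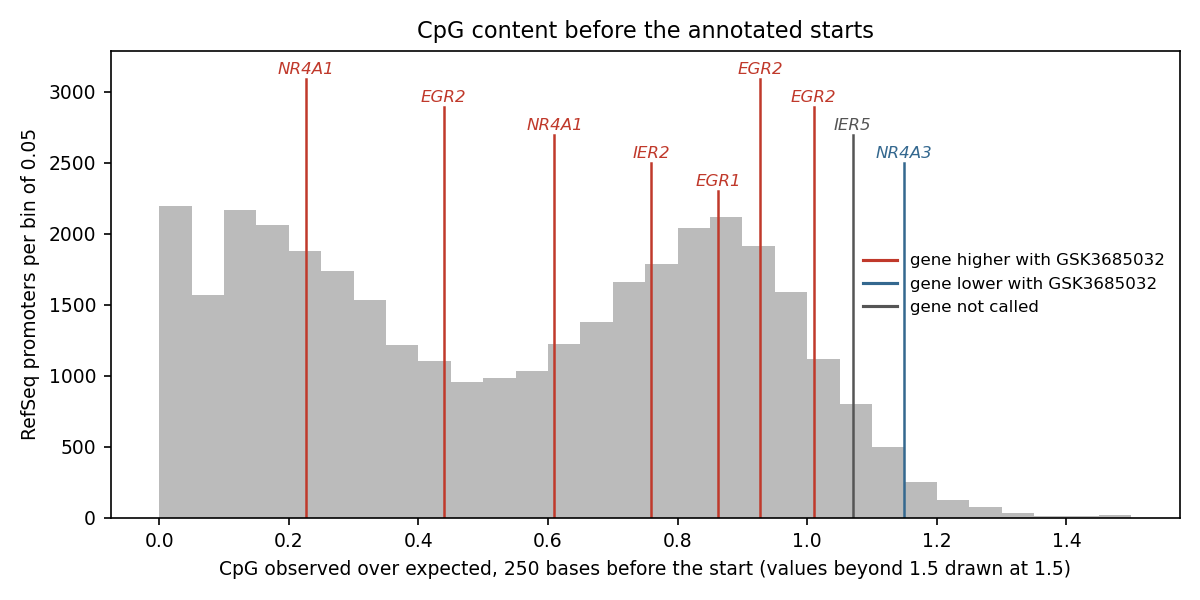
Histogram of the ratio of observed to expected CpG in the 250 bases before 35116 RefSeq starts, with lines at the starts of the 6 genes with an entry (3 for EGR2, 2 for NR4A1); red, higher with the inhibitor, blue, lower, grey, not called. NR4A3 and IER5 have the highest ratios, 1.15 and 1.07, and a start of NR4A1 the lowest, 0.226.

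The genes most like the leading member of each family were found by the distance between their log2(FPKM + 0.5) values over the 6 libraries, each centred on its own mean. Closest to EGR1 were LINC02525, DFFB and H2BC19P, at root mean square distances of 0.0724, 0.0992 and 0.102. Closest to NR4A1 were UAP1, FURIN and PDE4A, at 0.0173, 0.0244 and 0.0296, and closest to IER2 were KIAA1191, GLUL and SNX32, at 0.0263, 0.0275 and 0.0292. UAP1 averaged 35.5 ± 0.739 FPKM with the inhibitor and 13.8 ± 0.318 FPKM with DMSO. With 6 libraries in 2 groups the measure is mostly the size of the group difference.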

How the data were processed

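RNA was measured by poly(A)-selected, paired-end sequencing in 6 libraries, grouped by the series (T or C) in their titles. The submitters' processing notes list HISAT2 2.2.1, cutadapt 1.9, StringTie 2.1.6, edgeR and DESeq2 without saying what each did, and name the mouse build mm10. The gene IDs are human, and 99.89% of the 34105 found in GENCODE 29 overlapped their GRCh38 position, so coordinates were read as GRCh38. Per the file headers, each gene and library has an estimated count and an FPKM level computed by the authors, and no header defines how either was made.

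The counts were tested as deposited with edgeR 4.0.16 (R 4.3.3), using filterByExpr, TMM, the quasi-likelihood test and Benjamini-Hochberg adjustment over all tested genes, and the test was checked on simulated data. The simulation changed few genes, equally often up and down. It therefore cannot check the scaling where, as here, most genes are called and more rise than fall. Standard errors are the log2 change divided by the square root of F. Alternatives used DESeq2 1.42.0, limma 3.58.1 on log2(FPKM + pseudocount) with pseudocounts of 0.1, 0.5 and 1, other filters and scalings, a replicate block and left-out libraries. The members and lists were chosen with earlier results of these data known. Genes were named by rule: all members with EGR4, IER5L and DNMT1, up to 14 called, non-overlapping genes of the other immediate early list and up to 6 of each further list by change in log2(FPKM + 0.5), and 3 by likeness per family. Standard errors and SDs include the spread among libraries, whereas floors allow only for counting error in a DMSO group at 0. The replicate numbers are not stated to pair libraries, so they were used as pairs only in the block. Deviations of same-numbered libraries correlated weakly (0.094, 0.088 and -0.051). For inhibitor replicates 1 and 2 these were the highest correlations with any DMSO library, which does not settle whether the libraries were paired.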

Additional observations from a re-analysis of the deposited data

How the results depend on the processing

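Every one of the 9 genes kept its direction under all alternatives that tested it, and EGR1, EGR2, EGR3, NR4A1, IER2 and IER3 kept their call. The count of higher genes was 6 to 8, where these alternatives called 23.3% to 44.8% of tested genes higher and 14.8% to 35.6% lower. The count of lower genes was 1 with DESeq2 and with counts divided by 4. It was 0 under upper-quartile scaling, without a filter, with genes at 1 FPKM or more in 3 libraries (6 of the 9 tested), with limma at each pseudocount, and with inhibitor replicate 1 alone, and ranged from 0 to 1 when a library was left out. That count is NR4A3, whose log2 change was -0.80 under upper-quartile scaling, -0.97 without a filter, -0.24, -0.57 and -0.14 by limma with pseudocounts of 0.5, 0.1 and 1, -0.92 with inhibitor replicate 1 alone, which is assumed to vary like the other libraries (edgeR adjusted p = 0.221), and -1.24 to -0.69 with a library left out. The NR4A2 change was 0.59 to 0.79 with a library left out. IER5 was called under upper-quartile scaling (0.36), with genes at 1 FPKM or more (0.28) and with inhibitor replicate 1 alone (0.37), and its change was 0.078 to 0.311 with a library left out. By limma with pseudocounts of 0.1, 0.5 and 1, which shrink low genes, the EGR3 change was 2.93, 1.60 and 1.06. With the replicate number as a block, the NR4A3 change was -0.90 (edgeR adjusted p = 0.0715), so 0 of the 9 were lower, and no other of the 9 changed its call. The block gave 7448 genes higher and 5368 lower among all tested genes, and inhibitor replicate 3 did not correlate best with its own number.

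Restricting the test to genes at 1 FPKM or more gave 4826 genes higher, against 7918. Lower inducing transcription factors numbered 5 under upper-quartile scaling and 7 at 1 FPKM or more, against 11. The shares of all tested genes called lower there were 20.9% and 35.6%, against 27.3%. The excess of lower factors therefore depended on the setting. Genes called higher made up 44.8% and 38.9% under these settings, 31.5% with DESeq2 and 33.9% to 34.6% with limma, against 38.1%. Higher partners numbered 4 under upper-quartile scaling and 1 with DESeq2, limma and inhibitor replicate 1 alone, against 2. Lower targets numbered 3 under upper-quartile scaling, against 5, and higher decay genes 5 under that scaling and at 1 FPKM or more, against 3. HSPH1, not called, had a log2 change of 0.11 under upper-quartile scaling and 0.038 with genes at 1 FPKM or more, against -0.06. The causes were not tested. Depth limits EGR3, NR4A2, NR4A3 and EGR4, which rest on few read pairs.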
